A study of Mus musculus with 6 samples.

Results

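Gli3, Hhip, Fgf2 and Spry2 are 4 genes of the Hedgehog and FGF signalling pathways, and 9 of 3521 differentially accessible chromatin regions lay in or near them. The genes were chosen by the direction of those regions, out of 21883 protein-coding genes, to set pathway effectors (Gli3, Fgf2) beside feedback inhibitors (Hhip, Spry2). A region was linked to a gene when its midpoint lay inside the gene's span, or, outside all protein-coding spans, when this gene was the nearest within 100 kb. The regions come from ATAC-seq, in which a transposase inserts sequencing adapters into open chromatin, of mouse embryonic fibroblasts isolated at embryonic day 13.5. The 3 control libraries were Acvr1+/+ (WT) and the 3 mutant libraries Acvr1R206H/+ (FOP mutant), heterozygous for the R206H substitution in the BMP type I receptor ALK2 that causes fibrodysplasia ossificans progressiva, a disorder of bone formation in soft tissue. The series describes the 3 libraries of a genotype as biological replicates. The authors deposited 1 list of regions more accessible in FOP mutant cells (2965) and 1 of regions less accessible (556), with positions alone. No value per library, size of change, p-value or depth stands beside a region, so the differences below cannot be weighed by replicate error, and the cell type could not be checked against its markers.

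Hedgehog ligands bind the receptor Patched and so release Smoothened, which changes the GLI transcription factors. GLI3 is processed to a repressor in cells without ligand and acts as an activator in its full-length form. Patched and the membrane protein HHIP, whose genes the pathway turns on, bind the ligand and limit its range. FGF ligands bind receptor tyrosine kinases together with heparan sulphate and act through the RAS-MAPK cascade and ETS factors, and Sprouty proteins, induced by the same cascade, damp it. Both pathways pattern the limb bud and act in the growth of mesenchymal cells and cartilage.

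The sequences just before the transcription starts are shown as the points from which the distances below are counted, and because SMAD proteins act downstream of the mutated receptor. They are the 250 bases before each start on the gene's own strand, from RefSeq (GRCm38.p6), at chr13:15463473-15463722 (plus strand) for Gli3, chr3:37348403-37348652 (plus strand) for Fgf2, chr8:80058009-80058258 (minus strand) for Hhip and chr14:105896820-105897069 (minus strand) for Spry2. Capitals mark the SMAD motif CAGAC and the BMP-SMAD motif GGCGCC on either strand.
Gli3: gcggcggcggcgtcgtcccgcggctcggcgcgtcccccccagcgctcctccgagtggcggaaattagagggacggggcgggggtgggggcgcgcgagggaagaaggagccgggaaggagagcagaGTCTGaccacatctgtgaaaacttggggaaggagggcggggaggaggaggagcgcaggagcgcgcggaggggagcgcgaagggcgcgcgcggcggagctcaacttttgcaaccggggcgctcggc
Fgf2: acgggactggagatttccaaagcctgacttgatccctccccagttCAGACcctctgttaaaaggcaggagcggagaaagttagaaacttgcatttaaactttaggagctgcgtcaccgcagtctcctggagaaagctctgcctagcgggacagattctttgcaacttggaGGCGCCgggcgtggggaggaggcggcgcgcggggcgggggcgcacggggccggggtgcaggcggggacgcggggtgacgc
Hhip: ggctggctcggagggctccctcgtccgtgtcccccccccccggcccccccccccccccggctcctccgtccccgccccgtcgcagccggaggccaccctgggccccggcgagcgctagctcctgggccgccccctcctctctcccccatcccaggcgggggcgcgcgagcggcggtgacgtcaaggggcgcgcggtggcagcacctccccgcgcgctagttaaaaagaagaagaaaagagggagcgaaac
Spry2: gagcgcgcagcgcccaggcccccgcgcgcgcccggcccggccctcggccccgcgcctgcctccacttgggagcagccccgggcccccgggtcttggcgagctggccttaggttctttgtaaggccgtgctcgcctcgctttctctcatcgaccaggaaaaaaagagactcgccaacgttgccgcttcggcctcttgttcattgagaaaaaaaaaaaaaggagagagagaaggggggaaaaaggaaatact

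The SMAD motif CAGAC matched in the windows of both effectors, 125 bases before the start of Gli3 (as its reverse complement) and 205 bases before that of Fgf2, and in neither inhibitor window. It is a common string, present in 40.8% of 21262 windows of the same length at 17491 protein-coding genes. The BMP-SMAD motif GGCGCC matched in the Fgf2 window, 80 bases before the start, against 12.3% of all windows. The E-box CANNTG (62.8% of windows) matched at Gli3 and Spry2, and the RUNX motif TGNGGT (38.5%) at Gli3, where it overlapped the E-box, and at Fgf2. The motifs of GLI (TGGGTGGTC, 0.160%), AP-1 (TGANTCA, 6.13%), TEAD (GGAATG, 11.7%) and ETS (CCGGAAGT, 3.79%) matched in none of the 4 windows. The share of G and C in the windows was 72.8% for Gli3, 76.0% for Hhip and 62.4% for both Fgf2 and Spry2, all above a median of 55.6% (quartiles 47.2 and 64.0%) over all windows. No listed region overlapped any of the 4 windows. Windows overlapped by a listed region were rare throughout, with 5 of the 2965 more accessible regions (0.169%) and 4 of the 556 less accessible regions (0.719%) touching the stretch from 250 bases before to 50 after a start of a protein-coding gene. The gap from window to nearest region was 1.53 kb at Fgf2, 21.0 kb at Gli3, 24.8 kb at Hhip and 25.3 kb at Spry2. The sequence of the regions themselves was not used here.

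Gli3, which encodes a GLI transcription factor of the Hedgehog pathway (chromosome 13, 15463723 to 15730026, plus strand, 266 kb), had 4 more accessible and 0 less accessible regions. At least 1 more accessible region was linked to 7.27% of the 21883 protein-coding genes, and 4 or more to 0.283% (62 genes). These shares are background only, since the direction of the regions chose the gene. One region lay upstream, at 15441855 to 15442479, with its midpoint 21.6 kb before the start. The other 3 lay inside the gene, at 15534616 to 15534946, 15545433 to 15545848 and 15654080 to 15654881, or 71.1, 81.9 and 191 kb after the start. In parts of the gene's length these are 26.7, 30.8 and 71.6%, so the first 2 of them stood together, 10.9 kb apart, while the outer gaps were 92.6 and 109 kb and the whole group spanned 212 kb. The regions were 625, 331, 416 and 802 bp wide in that order, on both sides of the list's median of 572 bp. No other protein-coding gene was close: the nearest to any of the 4 was Inhba, the activin A subunit gene, 350 to 562 kb away. The upstream region lay 17.8 kb from the lncRNA gene Gm6556.

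Fgf2, which encodes a secreted FGF ligand of fibroblasts (chromosome 3, 37348477 to 37410106, plus strand, 61.6 kb), had 2 more accessible and 0 less accessible regions, and 2 or more such regions were linked to 2.07% of all protein-coding genes. They lay close to the start and on either side of it. The upstream region, 37346272 to 37346877 (606 bp), had its midpoint 2.08 kb before the start. The second, 37353911 to 37355091 (1181 bp), lay inside the gene 5.85 kb after the start, at 9.77% of the gene's length. It was among the widest of its list: 2.29% of the 2965 more accessible regions were at least as wide. The midpoints were 7.93 kb apart. The upstream region also lay inside the lncRNA gene Fgf2os, so its link to Fgf2 holds among protein-coding genes alone. Fgf2 overlaps Nudt6 at its far end, away from both regions.

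Hhip, the Hedgehog-interacting protein that binds the ligand and inhibits the pathway (chromosome 8, 79965850 to 80058060, minus strand, 92.2 kb), had 1 less accessible and 0 more accessible regions. At least 1 less accessible region was linked to 1.99% of protein-coding genes. The region, 80031961 to 80033210, lay inside the gene, 25.4 kb after the start and at 27.6% of its length. It was 1250 bp wide, and 3.06% of the 556 less accessible regions were at least that wide. The next less accessible region on the chromosome was 4889 kb away and the next more accessible one 385 kb away.

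Spry2, which encodes a Sprouty inhibitor of receptor tyrosine kinase signalling (chromosome 14, 105891947 to 105896819, minus strand, 4.87 kb), had 1 region in each direction. At least 1 region in both directions was found at 80 protein-coding genes (0.366%). Both lay outside this short gene and on opposite sides of it. The less accessible region, 105922379 to 105923347 (969 bp), was upstream, 26.0 kb before the start. The more accessible region, 105830358 to 105830812 (455 bp), was downstream, 61.4 kb past the gene's end, and 1.23 kb from the lncRNA gene Gm41239. The 2 midpoints were 92.3 kb apart. A further less accessible region, 105752107 to 105753119 (1013 bp), was nearest to Spry2 among protein-coding genes but 139 kb from it, and so fell outside the limit of 100 kb. Taking it in, the order along the chromosome from downstream to upstream was less, more and less accessible. The nearest other protein-coding genes, Trim52 and Ndfip2, were 209 and 583 kb from Spry2.

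**Figure D1:**
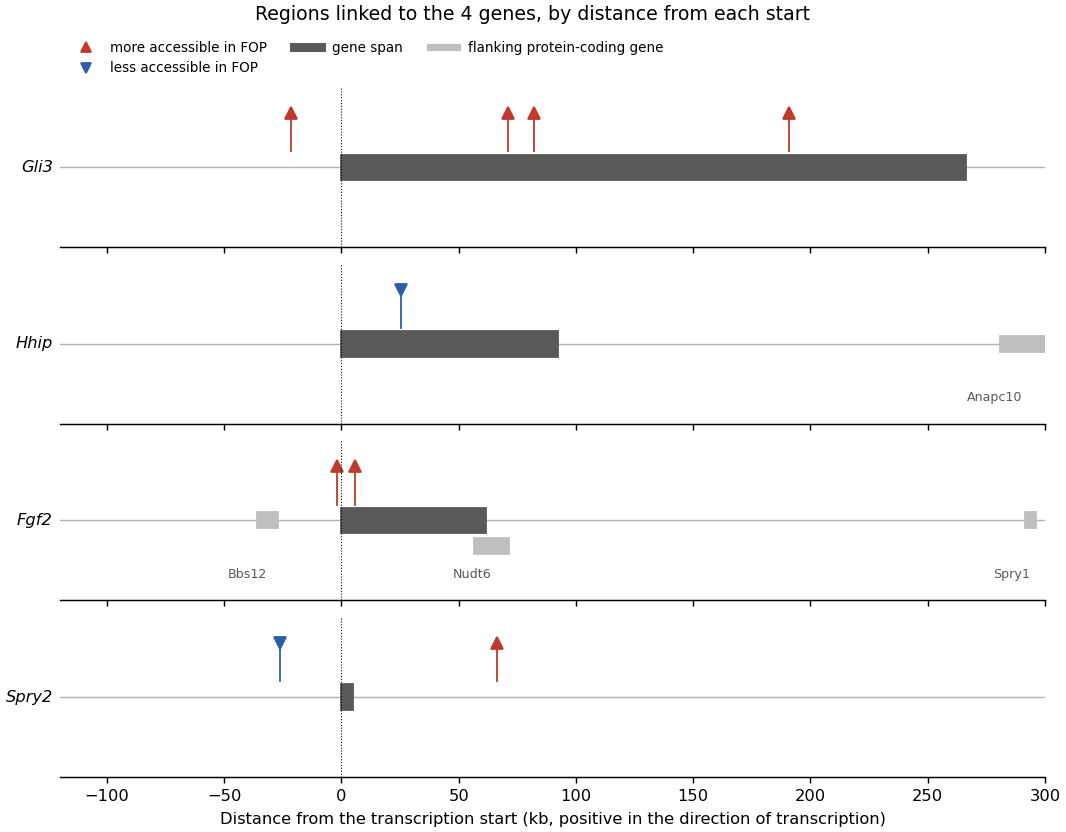
Regions linked to Gli3, Hhip, Fgf2 and Spry2 (rows), by the distance of the midpoint from the transcription start in kb, positive in the direction of transcription; upward triangles are more and downward triangles less accessible in FOP mutant cells, dark bars are gene spans and light bars flanking protein-coding genes. The 6 regions of Gli3 and Fgf2 all point up, Hhip has 1 downward mark inside the gene, and Spry2 has 1 of each.

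Set side by side, the effectors Gli3 and Fgf2 had 6 more and 0 less accessible regions, and the inhibitors Hhip and Spry2 had 1 more and 2 less accessible regions. These counts restate how the genes were chosen and carry no test. Gli3 was counted as an effector, although GLI3 also has the repressor form described above. Over all protein-coding genes, 2305 of 2780 links (82.9%) were to more accessible regions. Among the 1946 genes with a region, regions in that direction alone were the usual state. Of all genes, 1510 (6.90%) had more accessible regions and no other, and 356 (1.63%) had less accessible regions and no other.

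The contrast was then followed through 66 Hedgehog and FGF genes listed by role, all of which matched a gene of the annotation. The list was written with earlier results of these data known. At least 1 more accessible region was linked to 13 of the 66 genes (19.7%, all genes 7.27%) and at least 1 less accessible region to 4 (6.06%, all genes 1.99%), and 16 had a region of either direction, where 8.89% of all genes did. Those counts include the 4 genes chosen for their regions. Among the other 62 genes, 10 had more accessible regions (16.1%) and 2 had less accessible ones (3.23%). The 47 effectors had 16 more and 1 less accessible regions, or 94.1% more accessible, and the 15 inhibitors had 3 and 3, or 50%, which again include the regions that chose the 4 genes. Without those genes, 45 effectors had 10 and 1, or 90.9% more accessible (exact Clopper-Pearson 95% interval 58.7 to 99.8%, for counting error only). The other 13 inhibitors had 2 and 1, or 66.7% (9.43 to 99.2%). These intervals overlapped, and both held the 82.9% of all links. They treat regions as independent, although the effector genes Disp1 and Hhat held 2 each, and are no test of the contrast. Outside Gli3, Fgf2, Hhip and Spry2 the contrast in direction therefore rested on 1 less accessible region on each side. On the inhibitor side it was that of Sufu, a cytoplasmic and not a feedback inhibitor. Of the feedback inhibitors outside the 4 genes, Ptch1 and Il17rd had 1 more and 0 less accessible regions each, and the others had none. Of all 12 feedback inhibitors, 3 including Spry2 had more accessible regions (25%, all genes 7.27%). The 2 with less accessible regions were Hhip and Spry2. No less accessible region thus lay at a feedback inhibitor outside the chosen genes. At so few genes that is the usual state, since 1.99% of all genes had such a region.

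Hedgehog genes carried more of these regions than FGF genes. Of 18 Hedgehog genes, 7 had more accessible regions (38.9%), against 6 of 48 FGF genes (12.5%), beside 7.27% of all genes, a difference that was not tested. Without the 4 chosen genes it was 6 of 16 Hedgehog genes (37.5%) and 4 of 46 FGF genes (8.70%), the latter near the share of all genes. The stretch of sequence that could be linked to a gene was also longer, mainly for effectors. Its median was 158 kb for Hedgehog and 78.7 kb for FGF effectors, the chosen genes included. For inhibitors it was 98.9 kb (Hedgehog) and 83.0 kb (FGF). The 13 Hedgehog effectors had 11 more and 0 less accessible regions, at 6 genes. Among the transcription factors, Gli2, the main activator of the pathway, had 1 more accessible region inside it (572 bp), beside the 4 of Gli3. Disp1, which releases the ligand from the cell, had 2 inside it (441 and 488 bp), 36.4 kb apart, and Hhat, the enzyme that attaches palmitate to the ligand, had 2 inside it (620 and 357 bp), 209 kb apart. The coreceptor genes Cdon and Gas1 had 1 each, that of Cdon inside the gene and that of Gas1 40.4 kb past its end. None of the 3 ligand genes had a linked region, nor did the transducer Smo. Of the 5 Hedgehog inhibitors, 3 had regions, where 8.89% of all genes had a region of either direction. Without Hhip, which was chosen for its region, it was 2 of 4, with 1 region in each direction. Beside Hhip, Sufu, which holds GLI proteins in the cytoplasm, had 1 less accessible region inside it (1242 bp), at 89.3% of its length. Ptch1, which encodes the Patched receptor, had 1 more accessible region (366 bp) 87.2 kb upstream, the most distant link in the list.

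The 34 FGF effectors had 5 more and 1 less accessible regions. Of 18 secreted ligand genes, only Fgf2, chosen for its regions, had more accessible ones (5.56%, all genes 7.27%). Only Fgf1, a second fibroblast growth factor without a classical secretion signal, had a less accessible region (5.56%, all genes 1.99%). That region (760 bp) lay inside Fgf1 and inside the overlapping gene Arhgap26 as well. The receptor gene Fgfr2 had 1 more accessible region inside it (477 bp), 8.49 kb after the start. Sos1, the exchange factor that activates RAS, had 1 at 9.84 kb upstream, and Etv5, an ETS factor induced by FGF, had 1 at 39.9 kb past its end. Among the 9 feedback inhibitors, Il17rd, which encodes the inhibitor SEF, had 1 more accessible region inside it (658 bp), 12.8 kb after the start, and the others apart from Spry2 had none. The 4 genes of the intracellular FGF homologous factors, which do not signal through FGF receptors, had none either. Having none is the usual state, since 8.89% of all protein-coding genes had a region of either direction. Beyond the limit of 100 kb lay more accessible regions 137 and 252 kb from Fgfr2 and 406 kb from Fgf9. Dusp6, a phosphatase that inactivates ERK, had such regions at 144 and 204 kb.

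**Figure D2:**
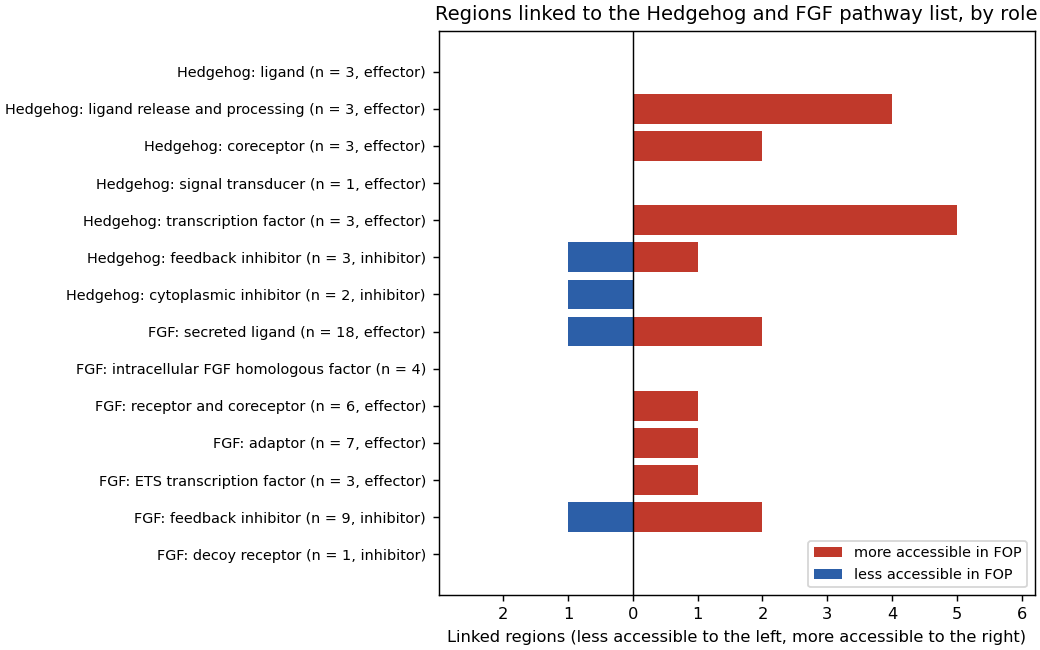
Number of linked regions for each role of the 66 Hedgehog and FGF genes, more accessible to the right and less accessible to the left, with the number of genes in each role. Hedgehog transcription factors have 5 and ligand release genes 4 more accessible regions, and the 4 less accessible regions fall to feedback inhibitors (1 in each pathway), cytoplasmic Hedgehog inhibitors and FGF ligands.

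Long genes in empty neighbourhoods can be linked to more regions, so the counts were also given per length. The stretch from which a midpoint would be linked to a gene, its span plus the nearest flanks up to 100 kb, was 466 kb for Gli3, 286 kb for Hhip, 205 kb for Spry2 and 75.1 kb for Fgf2, with a median of 45.8 kb over all genes. Gli3 had 8.58, Fgf2 26.6 and Spry2 4.88 more accessible regions per Mb of it, where all protein-coding genes together had 1.20. Less accessible regions came to 3.49 per Mb at Hhip and 4.88 at Spry2, against 0.246 for all genes. By this measure Fgf2, with its short stretch, stood highest among the 4, above Gli3 with its larger count. Each value rests on 1 to 4 regions, the ones that chose the gene. Values above those of all genes therefore follow from the choice and are a description only. The Hedgehog effectors together had 5.01 more accessible regions per Mb, and 4.05 without Gli3. The FGF effectors had 1.58, from 5 regions, and 0.968 without Fgf2, from 3 regions. So few regions do not set either value apart from the 1.20 of all genes. Inhibitors had 1.66 (Hedgehog, from 1 region) and 1.82 (FGF, from 2 regions) more accessible regions per Mb. Without Hhip and Spry2 these were 3.16 and 1.12, each from 1 region. Counts this small cannot order the inhibitors and effectors of the FGF pathway. Less accessible regions came to 3.32 per Mb at Hedgehog inhibitors, from 2 regions. Without Hhip the value was 3.16, from the 1 region of Sufu alone. At FGF inhibitors they came to 0.912 per Mb and to 0 without Spry2, which held the 1 such region of that group.

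**Figure D3:**
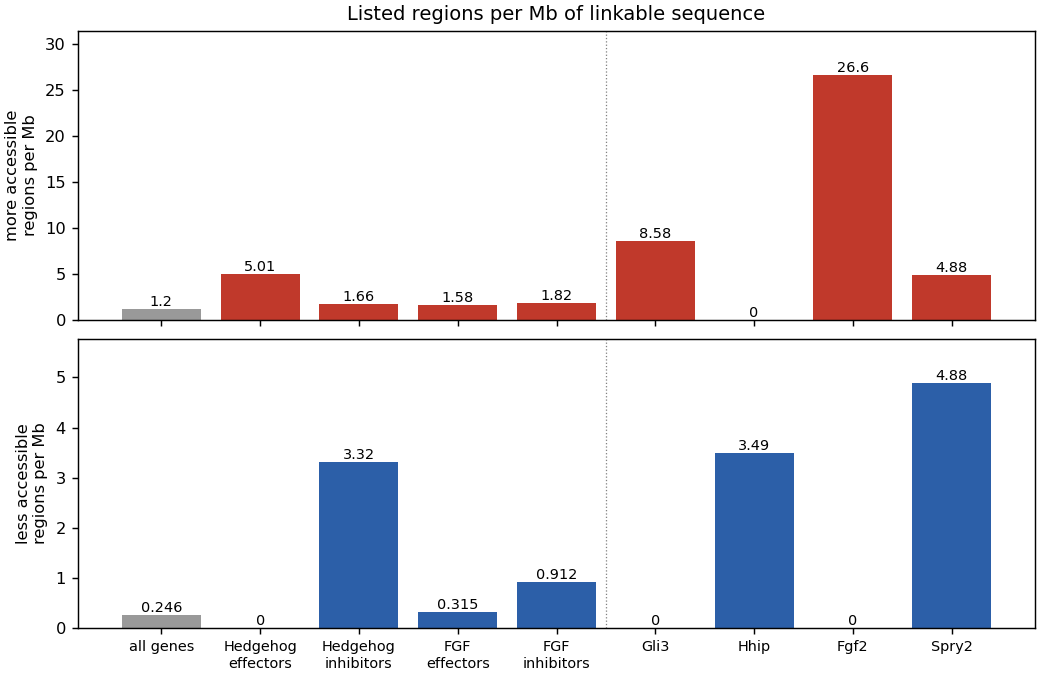
More accessible (top) and less accessible (bottom) regions per Mb of linkable sequence for all protein-coding genes, for effectors and inhibitors of each pathway and for the 4 genes, with the value over each bar. Fgf2 reaches 26.6 more accessible regions per Mb and all genes 1.20. The 4 genes were chosen for their regions, which the effector and inhibitor bars include, so their height above all genes is no test. No error bars are drawn because the lists hold no replicate values.

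In position, the 4 genes showed each class that the links allow. Of the 7 more accessible regions, 4 were inside the gene, 2 upstream and 1 downstream, and of the 2 less accessible regions 1 was inside and 1 upstream. Over all linked regions whose gene had a strand in the promoter table, 59.7% of 1785 more accessible regions were inside, 22.1% upstream and 18.2% downstream, and 56.3, 25.6 and 18.0% of 355 less accessible ones. In width, the more accessible regions at effectors of the list ran from 260 to 1181 bp with a median of 570 bp (16 regions), near the 572 bp of the whole list (quartiles 439 and 762 bp). The 3 less accessible regions at inhibitors were 969, 1242 and 1250 bp wide (Spry2, Sufu, Hhip), all above the upper quartile of 786 bp of the less accessible list. Widths are as the authors deposited them. This was noticed after the values were seen and was not tested.

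**Figure D4:**
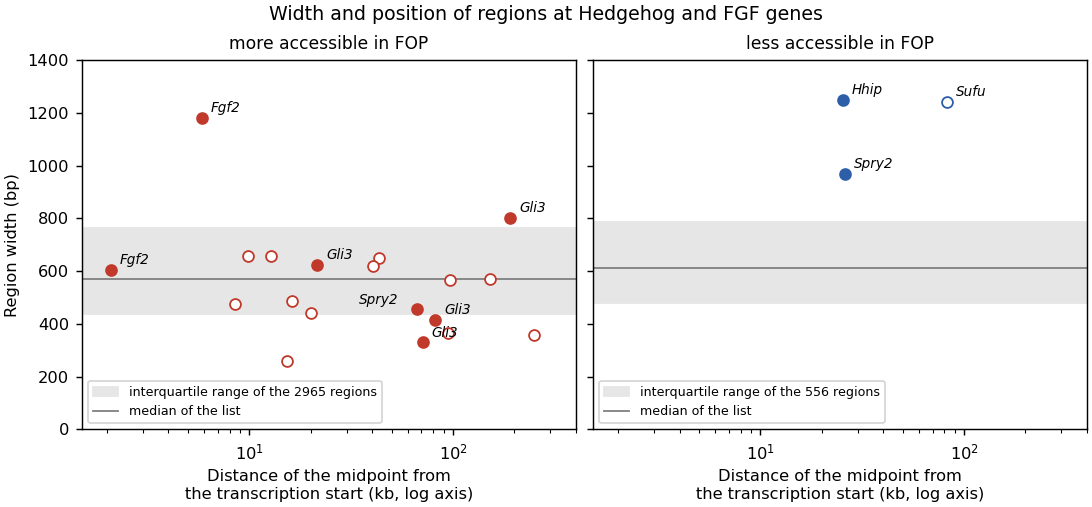
Width of each linked region in bp against the distance of its midpoint from the nearest annotated transcription start of the linked gene in kb (log axis), for regions more accessible (left) and less accessible (right) in FOP mutant cells; filled points belong to Gli3, Fgf2, Hhip and Spry2, open points to the other genes of the list, and grey marks the interquartile range and median of the whole deposited list. Hhip, Sufu and Spry2 lie above the grey band on the right, and the region inside Fgf2 lies highest on the left; the region at Fgf1, with no start in the table, is not drawn.

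The genes most like each of the 4 were taken as those with the same number of regions in both lists and the nearest span length. For Gli3 (4 and 0) these were Angpt1 (252 kb), Bicc1 (237 kb) and Plce1 (304 kb), among 33 other genes with those counts. For Fgf2 (2 and 0) they were Ttc23l (61.6 kb), Cacna1h (62.1 kb) and Mbd2 (60.9 kb), among 275. For Hhip (0 and 1) they were Bicral (92.3 kb), Dgkd (91.9 kb) and Sufu (91.9 kb), among 330. Sufu is also a Hedgehog inhibitor, but its match with Hhip in counts and length is the rule that picked it. For Spry2 (1 and 1) they were Irf2bp2 (5.69 kb), Tmem171 (9.42 kb) and Blcap (10.0 kb), among 48. The likeness is over 2 lists and says nothing of levels in single libraries.

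Beyond the links, the surroundings within 1 Mb of the spans differed among the 4 genes. Around Gli3 there were 3 further regions, 1 more accessible 461 kb upstream and 2 less accessible 486 and 757 kb downstream, past Inhba. Around Hhip all 4 further regions were more accessible and downstream, from 318 kb (inside Otud4) to 744 kb, so the less accessible region inside Hhip was alone in its direction there. Around Fgf2 all 5 were more accessible, 685 to 888 kb downstream and 152 to 355 kb from Ankrd50, the nearest protein-coding gene. Fgf2 and the feedback inhibitor gene Spry1 are neighbours on chromosome 3, 230 kb apart; the 2 Fgf2 regions were 285 and 293 kb from Spry1, which had no linked region. Around Spry2 the less accessible region at 139 kb was the only further one.

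**Figure D5:**
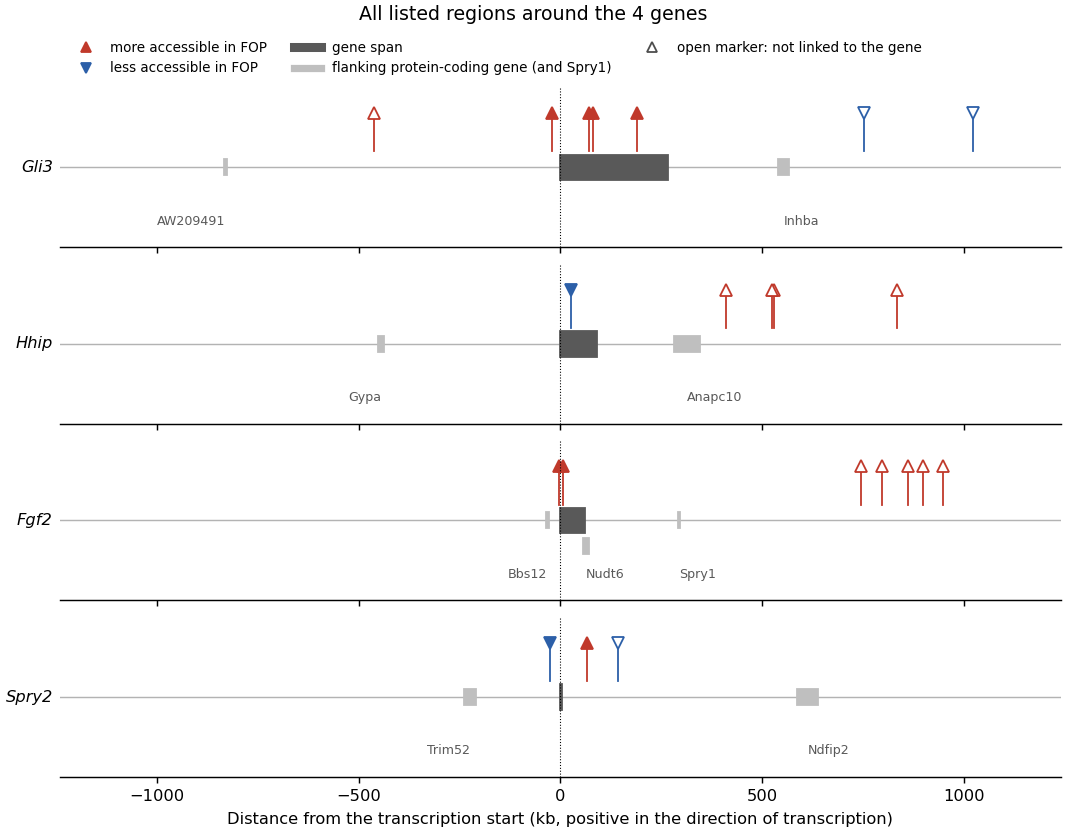
All listed regions within 1 Mb of the spans of Gli3, Hhip, Fgf2 and Spry2, by distance from the transcription start in kb (positive in the direction of transcription); filled triangles are linked to the gene, open ones are not, and light bars are the flanking protein-coding genes and Spry1. Hhip has 1 downward mark and 4 open upward marks, Fgf2 has upward marks only, and Spry2 has a downward mark on each outer side of its upward one.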

How the data were processed

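ATAC-seq libraries of 3 WT and 3 FOP mutant samples of fibroblasts underlie a pair of deposited region lists, which give positions in base pairs and, by their names, the direction. Per the submitters' processing notes, the authors used DESeq2, featureCounts, MACS2, bedtools, SAMtools, Bowtie2 and Trimmomatic with the builds mm10 and GRCm38; versions, cutoffs, duplicate and transposase offset treatment and pooling of libraries were not given in the sources used here. A list made with a cutoff holds no unchanged peaks, so a gene without a region may still have open chromatin.

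Regions were linked with Python 3.11.15 (pandas 2.3.3, numpy 2.4.6) to RefSeq GRCm38.p6 protein-coding spans on chromosomes 1 to 19, X and Y; a region in overlapping spans counts for each. The links were checked on 600 planted positions, all of which were linked as planted. Starts and strands came from the promoter table, with exons not used here. Exact intervals used scipy 1.17.1. Named genes are the 4 genes, list genes with a region, flanking genes, and for each of the 4 the 3 most alike; Gm6556, Gm41239, Fgf2os, Arhgap26, Otud4, Ankrd50 and list genes named without a linked region were added after the values were seen. The genes and lists were chosen with earlier results of these data known.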

Additional observations from a re-analysis of the deposited data

How the results depend on the processing

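With the link limit at 10 kb, Spry2 had 0 more and 0 less accessible regions and the inhibitors 1 more accessible region; with no limit, Spry2 had 2 less accessible regions and the inhibitors 5 more accessible. With regions within 10 kb merged, Fgf2 had 1 more accessible region. With all annotated genes competing for a region, Fgf2 had 1 and Spry2 0 more accessible regions and the inhibitors 1, since lncRNA genes took the others. With each gene counted once, the effectors had 10 more accessible links. Without the 4 genes (an alternative chosen after seeing the data) the effectors had 10 more accessible and the inhibitors 1 less accessible region. Within spans alone, Hhip had 10.8 less and Fgf2 16.2 more accessible regions per Mb and Spry2 0 of either. Counts under linking by the nearest gene end or by any overlap, for feedback inhibitors alone and without the intracellular factors stayed within 1.5 times those reported. The 2 less accessible regions of feedback inhibitors alone were those of Hhip and Spry2. Across the 6 alternatives of linking, effectors were 92.9 to 95% and inhibitors 25 to 55.6% more accessible. These shares include the regions that chose the 4 genes, so they do not show that the contrast is stable. The inhibitor shares rest on few regions, the 25% on 1 more and 3 less accessible. Without the 4 genes the main setting gave 90.9% of 11 effector regions and 66.7% of 3 inhibitor regions. No paired analysis was possible because the lists hold no value per library, and leaving out a replicate was not run for the same reason. Depth is unknown.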
